A study of Mus musculus with 3 samples.

Results

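Hoxc12, Hoxd12, Hoxa13, Hoxb13, Hoxc13 and Hoxd13 are the 6 genes of the last 2 paralog groups of the mouse Hox clusters, and they were taken by symbol from the 32285 genes counted in single-cell RNA-seq of embryonic kidney. They were selected on their UMI counts in these libraries, as genes that are usually silent in kidney but were counted in Enl-T1, so their levels and their differences between libraries are given here as a description with no test. Each group was 1 library of whole kidneys at E15.5. The Enl-WT and Enl-T1 libraries pooled a few embryos each, with fewer in Enl-WT, and the number behind the treated library is not given in the sources used here. Enl-WT kidneys were Enl+/+ Wt1GFPCre/+. Enl-T1 kidneys were Enl flox-T1/+ Wt1GFPCre/+, a heterozygous conditional knock-in of the T1 mutation, a small in-frame insertion in ENL that is found in Wilms tumor. The Enl-T1 TDI-11055 library came from Enl-T1 embryos whose mothers took TDI-11055, a compound that blocks the acyl-lysine pocket of ENL, by mouth at 100 mg/kg each day from E10.5 to E14.5. It is called treated Enl-T1 here, and Enl-T1 alone means the untreated library. The sample titles call the other groups untreated, while the treatment text names a vehicle. All groups carried Wt1GFPCre, which drives Cre from the Wt1 locus in the nephron and stroma lineages but not in the ureteric epithelium, and which removes 1 working copy of Wt1.

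Hox genes lie in 4 clusters and are switched on in their order along the chromosome, so that genes at the 5′ end mark the most posterior and distal tissues. Genes of paralog groups 9 to 11 pattern the nephrogenic mesenchyme, and the Hox11 paralogs are needed for the metanephric kidney to form. The terminal genes act elsewhere: Hoxa13 and Hoxd13 in the digits, genital tubercle, hindgut and lower urinary tract, Hoxd12 in the distal limb, Hoxb13 in the tail bud and prostate, and Hoxc12 and Hoxc13 in hair follicles and nails. ENL reads acylated histones and recruits the machinery for transcription elongation, and Hox genes are among its best known targets.

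The Enl-WT, Enl-T1 and treated Enl-T1 libraries held 7186, 6575 and 6453 barcodes. Those with 1000 to 6000 genes and at most 10% mitochondrial UMIs were kept, which left 5233, 4144 and 2754 cells with a median of 5090, 9391 and 16931.5 UMIs (unique molecular identifiers, 1 per captured transcript). Between 5 and 8 kept barcodes were shared by any pair of libraries. Cell classes came from clustering that left out all 49 Hox genes, so the terminal genes did not define the classes, and each class was named from its marker genes. The nephron lineage held 2215, 1300 and 1341 cells in the same order of libraries, the stroma 870, 1396 and 270, the ureteric epithelium 1744, 1173 and 1022, and the endothelium 395, 257 and 116. Levels are given as CPM, the UMIs of a gene per 1000000 UMIs of the class. Intervals are exact 95% intervals that cover counting error only, since no group had a second library, and neither the spread between embryos nor that between libraries could be measured. Those of UMI counts take each UMI as independent, so they are too narrow where several UMIs of a gene lay in the same cell. The share of cells with a Y-linked UMI and no Xist was 46.5%, 16.5% and 35.4%, and the median share of ribosomal protein UMIs was 16.5%, 26.8% and 27.9%, so sex and RNA composition moved with the groups and their part in the levels below was not tested.

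Only Hoxd12, Hoxa13 and Hoxd13 were counted at more than 2 UMIs in a library, and the promoter sequences just before their RefSeq starts are shown as those of the terminal genes whose levels are described here. Each run gives the 250 bases before the start on the gene's strand in GRCm38.p6, with the letters TATAAA and CCAAT, searched on both strands, in capitals. Hoxd12 lies on chromosome 2 (74675013 to 74677705, plus strand), and its window is chr2:74674763-74675012.
Hoxd12: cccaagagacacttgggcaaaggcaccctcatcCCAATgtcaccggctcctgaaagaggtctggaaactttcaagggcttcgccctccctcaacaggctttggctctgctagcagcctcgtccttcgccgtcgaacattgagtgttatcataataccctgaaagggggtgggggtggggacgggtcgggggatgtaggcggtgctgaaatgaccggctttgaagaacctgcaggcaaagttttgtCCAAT
Hoxa13 lies on chromosome 6 (52257694 to 52260880, minus strand), and its window is chr6:52260881-52261130.
Hoxa13: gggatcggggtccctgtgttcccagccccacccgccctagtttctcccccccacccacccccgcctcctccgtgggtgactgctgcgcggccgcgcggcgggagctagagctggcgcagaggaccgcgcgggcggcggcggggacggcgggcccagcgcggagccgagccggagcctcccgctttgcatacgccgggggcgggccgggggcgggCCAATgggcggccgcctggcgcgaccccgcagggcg
Hoxd13 lies on chromosome 2 (74668310 to 74671599, plus strand, in the gene annotation), and its window, before a RefSeq start that lies slightly further upstream, is chr2:74667975-74668224.
Hoxd13: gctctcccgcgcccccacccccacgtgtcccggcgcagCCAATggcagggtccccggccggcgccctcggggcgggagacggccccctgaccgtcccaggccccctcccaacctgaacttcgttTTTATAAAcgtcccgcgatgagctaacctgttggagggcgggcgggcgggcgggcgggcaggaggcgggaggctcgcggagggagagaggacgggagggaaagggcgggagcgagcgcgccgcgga
The Hoxd12 window had a GC content of 55.6% with 10 CpG sites. The Hoxa13 window was at 80% with 35 CpG sites and the Hoxd13 window at 74.4% with 31, against a median GC content of 52.4% over 32851 mouse windows. CCAAT occurred in all 3 windows and in 33.8% of all windows, and TATAAA occurred in the Hoxd13 window, on both strands in overlapping matches, and in 12.4% of all windows.

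Hoxd12 was the terminal gene with by far the most UMIs. It had 84 UMIs in 79 cells of Enl-WT, 1615 in 921 cells of Enl-T1 and 525 in 322 cells of treated Enl-T1. These counts were levels of 2.62 CPM (2.09 to 3.25), 36.5 CPM (34.8 to 38.4) and 12.1 CPM (11.1 to 13.2). The Enl-T1 library stood highest and the treated library between the others, with no overlap of the 3 intervals. The ratio was 13.9 (11.2 to 17.6) for Enl-T1 against Enl-WT, 0.332 (0.3 to 0.366) for treated Enl-T1 over Enl-T1 and 4.62 (3.67 to 5.89) for treated Enl-T1 over Enl-WT. The Enl-T1 library enters both of the first 2 ratios, which are therefore not independent. The 3 terminal genes with at least 10 UMIs in the compared libraries were all at least 2-fold higher in Enl-T1 than in the Enl-WT library, where 6.75% of 18311 genes were, and all 3 were at least 2-fold lower in treated Enl-T1 than in Enl-T1, where 12.1% of genes were. The genes were selected on their counts in Enl-T1, and Hoxa13 and Hoxd13 had fewer than 10 UMIs in Enl-WT. Their higher calls were therefore largely set by the selection and are no evidence of enrichment. With cells thinned to 2000 UMIs, only the lower call of Hoxd12 stayed past 2-fold. The thinned log2 ratio of treated Enl-T1 over Enl-T1 was -1.88 for Hoxd12, -0.41 for Hoxa13 and -0.21 for Hoxd13. Thinning keeps only a small part of the already few UMIs of Hoxa13 and Hoxd13, so their thinned ratios cannot show whether depth plays a part. The ratio of Hoxd13 was also 0.00 without ureter cells and 0.10 in cells with a Y-linked UMI and no Xist. The other 3 genes could not be compared. Over all genes the median log2 ratio was -0.31 for Enl-T1 against Enl-WT and -0.08 for treated Enl-T1 over Enl-T1.

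Most Hoxd12 UMIs came from the nephron lineage, which gives rise to podocytes and tubules. The nephron lineage level was 5.06 CPM (3.95 to 6.4) in the Enl-WT library, 87.5 CPM (82.7 to 92.5) in Enl-T1 and 25.7 CPM (23.5 to 28.1) in treated Enl-T1. The Enl-T1 level was 17.3-fold higher (13.6 to 22.3) than that of Enl-WT, and the treated level was 0.294 times (0.264 to 0.327) that of Enl-T1, which left it 5.08-fold (3.95 to 6.63) above Enl-WT. Of the nephron lineage cells, 2.93% held a Hoxd12 UMI in the Enl-WT library, 53.1% in Enl-T1 and 22.1% in treated Enl-T1, at median depths of 5309, 10258.5 and 13283 UMIs. After each cell was thinned to 2000 UMIs the shares were 1.47% (1.01 to 2.07), 15.2% (13.2 to 17.2) and 3.6% (2.67 to 4.75), so the order of the libraries was the same at equal depth. Endothelial cells, which lie outside the lineages of the Cre, gave thinned shares of 0%, 0.389% and 0%, where the counts of 0 allow up to 0.779% and 2.59% of cells with a UMI (3 cells of the total), at median depths of 5663, 10456 and 14335.5 UMIs. In Enl-T1, 323 of the 690 nephron cells with Hoxd12 held more than 1 UMI of it, with up to 9 in a cell, whereas in Enl-WT 5 of 65 did, with at most 2. All 3 terminal genes with enough UMIs were at least 2-fold higher in the Enl-T1 nephron lineage than in Enl-WT (6.01% of all genes were), and 2 of the 3, Hoxd12 and Hoxa13, were at least 2-fold lower in the treated nephron lineage than in Enl-T1 (6.11% of all genes were). Hoxa13 and Hoxd13 had 0 UMIs in the Enl-WT nephron lineage and were compared only through Enl-T1, so their higher calls were largely set by the selection.

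In Enl-WT, Hoxd12 was not silent, and most of its UMIs lay in the NP1-like class of self-renewing nephron progenitors. The NP1-like class joined 1 cluster led by Rspo3, Cited1 and Ppp1r14a with 2 that were led by cell cycle genes (Rrm2, Ccne2 and Pclaf, and Ube2c, Nusap1 and Cenpf) and carried the NP1 markers, such as Six2. It held 52 of the 84 UMIs (61.9%, 50.7 to 72.3) in 12.9% of the cells. Its level of 13.2 CPM (9.86 to 17.3) was 20.4 times (3.51 to 822.2) that of the NP2-like class of committed progenitors, and 78.9 times (13.6 to 3176.2) that of podocyte-like, proximal tubule-like and distal tubule or loop of Henle-like cells in one pool. These differentiated classes held 1 Hoxd12 UMI in 910 Enl-WT cells, a level of 0.167 CPM, below the 0.691 CPM of the Enl-WT endothelium. After thinning, 3.42% (2.18 to 5.08) of Enl-WT NP1-like cells held a Hoxd12 UMI, and without thinning 7.09%. The Enl-WT level was higher still in an unnamed nephron cluster of 165 Enl-WT cells led by Saa1, C1qtnf12 and Prrx1. Hoxd12 was thus not particular to the NP1-like class.

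In Enl-T1, Hoxd12 was high in progenitors and in differentiated nephron cells alike. Its NP1-like level was 13.2 CPM in the Enl-WT library, 92.0 CPM (85.0 to 99.4) in Enl-T1 and 32.9 CPM (29.3 to 36.8) in treated Enl-T1. The NP1-like ratio was 6.97 (5.25 to 9.43) for Enl-T1 against Enl-WT and 0.358 (0.311 to 0.41) for the treated library over Enl-T1. In the NP2-like class the UMIs numbered 1, 31 and 9, or 0.646, 39.7 and 5.16 CPM. Hoxd12 in the pooled podocyte-like, proximal tubule-like and distal tubule or loop of Henle-like cells went from 0.167 CPM in Enl-WT to 60.1 CPM (48.9 to 73.2) in Enl-T1 and 7.54 CPM in treated Enl-T1, with 1, 99 and 26 UMIs in 910, 149 and 283 cells. That is a ratio of 359.4 (63.0 to 14335.2) for Enl-T1 against Enl-WT, which rests on the single Enl-WT UMI, and for treated Enl-T1 against Enl-T1 a level that was 7.98-fold lower. In the Enl-T1 library the NP1-like level was 1.53 times (1.24 to 1.91) that of the differentiated cells, against 78.9 times in Enl-WT and 4.37 times (2.92 to 6.79) in treated Enl-T1.

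Hoxd12 was highest in the Enl-T1 library in each of the differentiated classes. Distal tubule or loop of Henle-like cells held 1, 48 and 21 UMIs, or 0.391, 53.6 (39.5 to 71.1) and 9.82 CPM, and the treated level was 0.183 times (0.104 to 0.312) that of Enl-T1. Proximal tubule-like cells, which carry out most reabsorption, held 0, 28 and 3 UMIs, at least 39.4-fold higher in Enl-T1 than in the Enl-WT library when the Enl-WT class is set at a floor of 3 counts. Podocyte-like cells of the glomerular filter held 0, 23 and 2 UMIs, at least 38.0-fold higher in Enl-T1. These classes were small in Enl-T1, at 70, 34 and 45 cells. 4 nephron clusters stayed unnamed because their markers or leading genes went against any one name. The highest Hoxd12 level of any cluster was in one of them, led by Sst, Akap12 and Meg3, at 125.6 CPM (109.1 to 143.9) in 195 Enl-T1 cells against 3.46 CPM in 44 Enl-WT cells. That cluster carried more stroma than nephron markers, and without all 4 unnamed clusters the nephron level of Hoxd12 was 4.71, 82.1 and 23.6 CPM, a ratio of 17.4 (13.2 to 23.4) for Enl-T1 against Enl-WT.

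**Figure D1:**
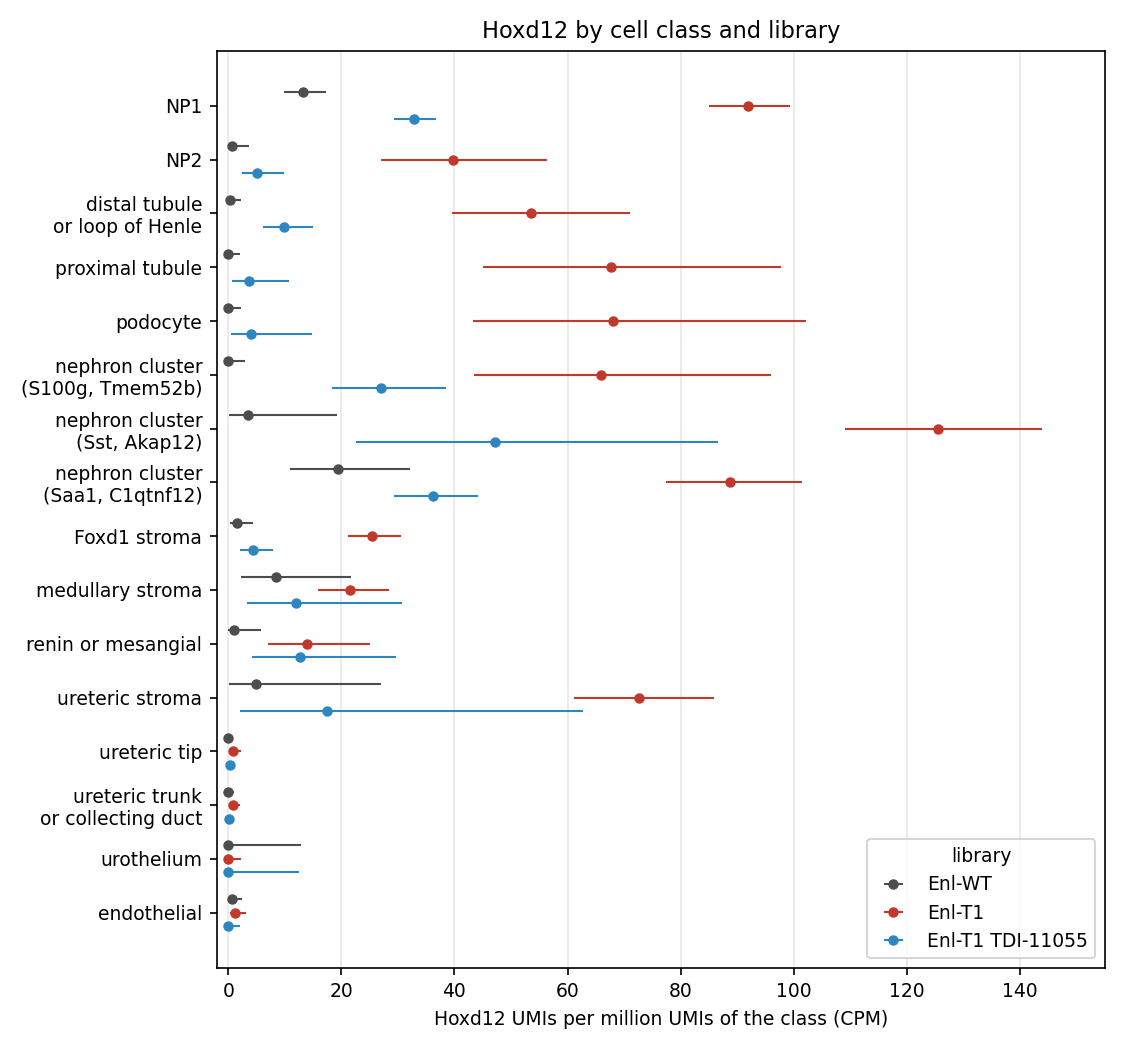
Hoxd12 level (CPM, horizontal axis) in each cell class or unnamed nephron cluster (rows) of the 3 libraries (colours). Points are CPM of summed UMIs, and lines are exact 95% counting intervals. The Enl-T1 points lie between 39.7 and 125.6 CPM in the nephron rows, while the Enl-WT points there stay at or below 19.4 CPM and the treated points lie between 3.66 and 47.1 CPM.

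The thinned shares of cells had the same order as the levels. In NP1-like cells 3.42%, 16.6% (13.6 to 20.1) and 5.08% (3.38 to 7.31) held a Hoxd12 UMI in Enl-WT, Enl-T1 and treated Enl-T1. In distal tubule or loop of Henle-like cells the shares were 0.246%, 14.3% (7.07 to 24.7) and 2.29% (0.626 to 5.75). In the pooled differentiated cells they were 0.112%, 12.8% (7.91 to 19.3) and 1.79% (0.584 to 4.13). The NP1-like intervals of Enl-WT and treated Enl-T1 overlapped at this depth, and that of Enl-T1 lay above both.

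**Figure D2:**
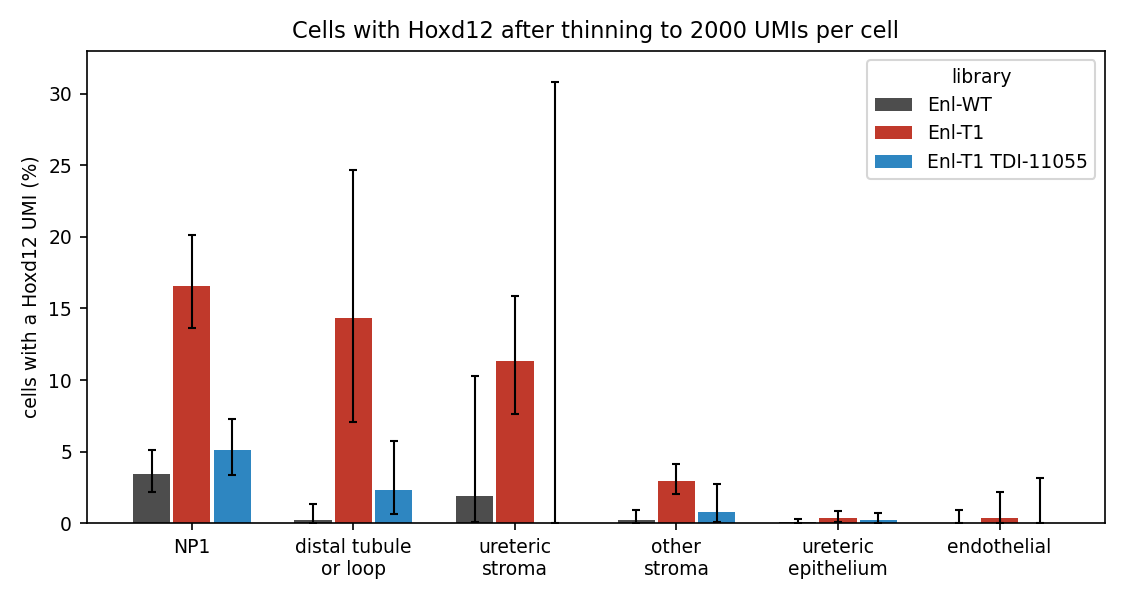
Share of cells with at least 1 Hoxd12 UMI (percent, vertical axis) after each cell was thinned to 2000 UMIs, by class (groups of bars) and library (colours), with exact binomial 95% intervals. The Enl-T1 bars reach 16.6% in NP1-like cells, 14.3% in distal tubule or loop of Henle-like cells and 11.3% in ureteric stroma-like cells, but only 0.342% in ureteric epithelium and 0.389% in endothelium. The wide interval without a bar is the 10 ureteric stroma-like cells of the treated library, none of which held Hoxd12 after thinning.

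Hoxd12 was also higher in the Enl-T1 stroma, the supporting lineage of the kidney in which the Cre is active too. The stroma held 9, 331 and 22 UMIs of Hoxd12 in the 3 libraries, or 2.21, 29.8 (26.7 to 33.2) and 6.32 CPM. The ratio was 13.5 (7.03 to 29.8) for Enl-T1 against Enl-WT and 0.212 (0.131 to 0.327) for treated Enl-T1 over Enl-T1. Both terminal genes with enough UMIs to compare, Hoxd12 and Hoxd13, were at least 2-fold higher in the Enl-T1 stroma than in that of Enl-WT (5.83% of all genes were) and at least 2-fold lower in the treated stroma (9.95% of all genes were). They had 9 and 3 UMIs in the Enl-WT stroma and were compared only through Enl-T1, so the higher calls were largely set by the selection. In this clustering, neither call of Hoxd13 held outside the ureteric stroma-like cells, which numbered 53, 248 and 11: in the other stroma Hoxd13 had 2, 6 and 2 UMIs, with a ratio of 1.26 (0.225 to 12.8) for Enl-T1 against Enl-WT and 0.912 (0.0901 to 5.1) for treated Enl-T1 over Enl-T1. The share of Hoxd13 UMIs in these cells changed with another random seed. Within the stroma, the Foxd1 stroma-like class, which holds the stromal progenitors, went from 1.5 CPM (3 UMIs) to 25.5 CPM (120) and 4.34 CPM (10). Medullary stroma-like cells were at 8.47, 21.5 and 12 CPM, with a ratio of 2.54 (0.933 to 9.71) for Enl-T1 against Enl-WT whose interval includes 1. Hoxd12 in the nephron lineage stood above the stroma in each library, by 2.29-fold (1.14 to 5.22), 2.94-fold (2.6 to 3.33) and 4.07-fold (2.66 to 6.56).

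The epithelium of the ureteric bud, where the Cre is not active, had little Hoxd12. The UMIs of the whole lineage numbered 3, 27 and 14, or 0.268, 1.75 and 0.737 CPM. The log2 ratio was 2.70 for Enl-T1 against Enl-WT (4.73% of all genes were at least 2-fold higher). For treated Enl-T1 over Enl-T1 it was -1.25 (8.97% of all genes were at least 2-fold lower). The order of the libraries was thus that of the nephron lineage and the stroma, at far lower levels, and its cause was not tested. With 3 Enl-WT UMIs, the higher call was largely set by the selection. The Enl-T1 ureteric level was 1.4 times (0.487 to 5.49) that of the Enl-T1 endothelium at 1.25 CPM, so it could not be told from the level in cells that should lack the gene. Most of these UMIs lay in 1 small cluster led by Vcan, Meis2 and Tpm2, with 15 of the 27 Enl-T1 UMIs and 9 of the 14 treated UMIs. That cluster carried stroma markers such as Meis2 and Col3a1. Its median depth in Enl-T1 was 17585 UMIs, against 11695 in the whole lineage, and whether it held mixed barcodes was not tested. Ureteric tip-like and ureteric trunk or collecting duct-like cells held 0 Hoxd12 UMIs in Enl-WT, 4 and 5 in Enl-T1, and 3 and 1 in treated Enl-T1.

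Whether the terminal genes came from the ureter, whose mesenchyme is a more distal tissue of the same tract, was examined by its 2 cell classes. Ureteric stroma-like cells, led by Car3, Syt1, Maob and Tbx18, numbered 53, 248 and 11, and urothelium-like cells 48, 99 and 15, so the ureter classes were 1.93%, 8.37% and 0.944% of kept cells and were themselves more frequent in the Enl-T1 library. The 12 ureteric stroma markers summed to 4768.2, 994.4 and 513.0 CPM in the ureteric stroma-like cells. Myh11, the smooth muscle myosin, had 181 UMIs in the 53 Enl-WT cells, 29 in the 248 Enl-T1 cells and 0 in the 11 treated cells, while Tbx18, the transcription factor of ureteric mesenchyme, had 51, 162 and 9 UMIs. The class thus held fewer Myh11 UMIs per cell in Enl-T1 than in Enl-WT. Against the other stroma of Enl-T1, the class was higher in Tbx18 (85.4 against 13.2 CPM), Actg2 (27.9 against 1.95 CPM) and Myh11 (15.3 against 6.51 CPM). It was lower in Acta2 (143.9 against 190.9 CPM), close in Tagln and Des, and higher in the remaining markers of the list. The name stands for a likeness in markers, and whether these cells came from the ureter was not tested.

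Ureteric stroma-like cells held Hoxd12 at 4.85 CPM (0.123 to 27.0) in the Enl-WT library, 72.7 CPM (61.1 to 85.9) in Enl-T1 and 17.4 CPM (2.11 to 62.8) in treated Enl-T1, from 1, 138 and 2 UMIs. In the Enl-T1 library their level was 3.47 times (2.77 to 4.34) that of the other stroma, at 21.0 CPM. It overlapped the Enl-T1 nephron lineage level of 87.5 CPM (82.7 to 92.5). Urothelium-like cells held no UMI of Hoxd12, Hoxa13 or Hoxd13 in any library, which allows up to 10.4, 1.86 and 10.1 CPM (3 counts of the class total). The ureter classes gave 8.54% (7.23 to 10) of the Hoxd12 UMIs of Enl-T1, where they held 7.95% of all UMIs, and 0.381% in treated Enl-T1. The 2 classes differed in Enl-T1. Ureteric stroma-like cells gave the whole 8.54% from 4.29% of all UMIs, while urothelium-like cells gave 0 from 3.66% of all UMIs. Without them, Hoxd12 was at 2.63, 36.3 and 12.2 CPM, and the ratio was 13.8 (11 to 17.4) for Enl-T1 against Enl-WT and 0.336 for treated Enl-T1 over Enl-T1, almost the values with them.

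The markers of the ureter were also followed inside the nephron lineage. The 12 ureteric stroma markers summed to 244.6, 227.1 and 212.1 CPM in the nephron lineage of Enl-WT, Enl-T1 and treated Enl-T1, with Tbx18 at 1, 5 and 0 UMIs and Myh11 at 8, 1 and 0. Most of that sum came from Ptch1, Bmp4 and Des, which other kidney cells also express. The 9 urothelium markers summed to 7.45, 21.1 and 7.47 CPM. Markers of cloacal or lower urogenital mesenchyme, the tissues where the terminal genes normally act, summed to 0, 3.49 and 1.05 CPM, with Tbx4 and Tbx5 at 0 in each library. None of the 690 Enl-T1 nephron cells with Hoxd12 held a UMI of these 5 genes, and the hindgut regulator Cdx2 was at 0 in all 3 nephron lineages. In Enl-T1 the ureteric stroma list was at 237.4 CPM in nephron cells with Hoxd12 and 212.8 CPM in those without.

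A broader definition by marker UMIs took in more cells. Cells with at least 3 of the 21 ureter markers were 9.48%, 28.2% and 14% of kept cells, and only 238 of the 1168 such cells in Enl-T1 lay in the ureter classes. They held 30.8% of the Hoxd12 UMIs in Enl-T1, where they held 30.3% of all UMIs, and 38.5% in treated Enl-T1, where they held 19.5% of all UMIs. In the opposite direction, cells without a UMI of any of the 21 markers held Hoxd12 in the nephron lineage at 4.31 CPM in the Enl-WT library, 65.1 CPM (53.9 to 78) in Enl-T1 and 16.1 CPM in treated Enl-T1. The order of the libraries was the same in these cells, in which no ureter marker was counted.

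**Figure D3:**
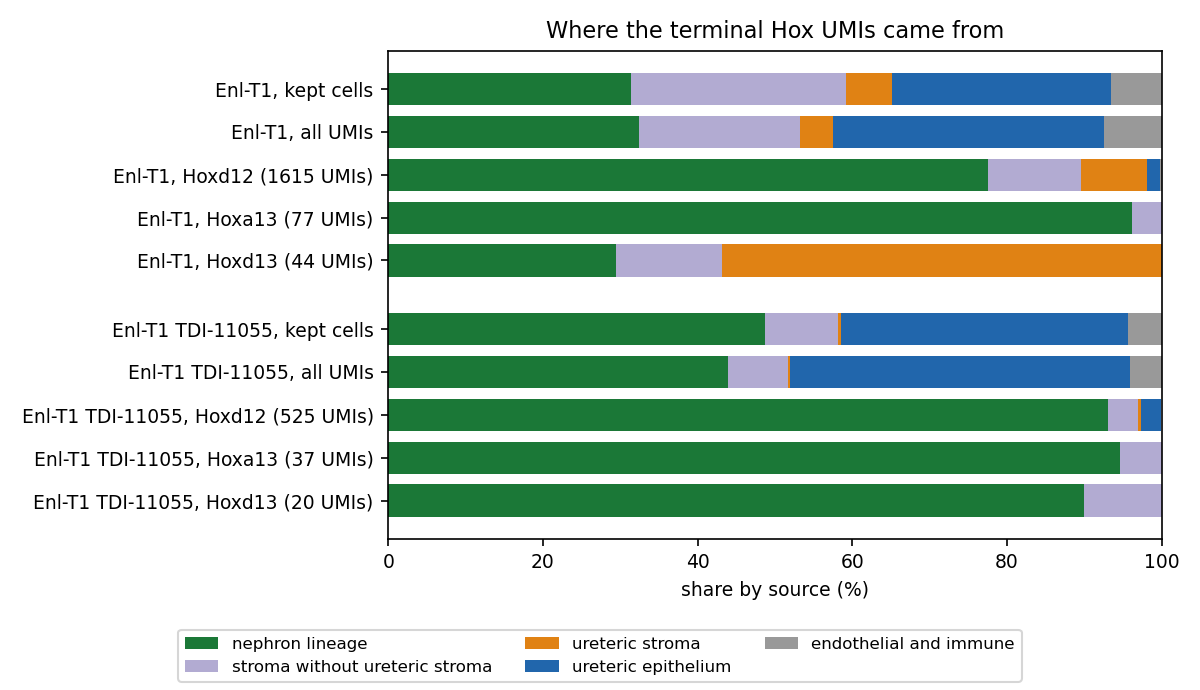
Source of the kept cells, of all UMIs and of the UMIs of each terminal gene (rows) in the untreated and treated Enl-T1 libraries, as a share in percent (horizontal axis) by lineage (colours). The nephron lineage gives 77.6% of Hoxd12 and 96.1% of Hoxa13 UMIs in Enl-T1 but 29.5% of Hoxd13 UMIs. Ureteric stroma-like cells give 56.8% of the Hoxd13 UMIs there.

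Hoxa13 was almost absent from Enl-WT and was found nearly only in the nephron lineage of the other libraries. It had 1, 77 and 37 UMIs in 1, 63 and 27 cells, or 0.0312, 1.74 (1.37 to 2.18) and 0.854 (0.602 to 1.18) CPM. The ratio was 55.8 (9.72 to 2231.6) for Enl-T1 against Enl-WT, resting on 1 Enl-WT UMI, and 0.491 (0.322 to 0.735) for treated Enl-T1 over Enl-T1. With cells thinned to 2000 UMIs the log2 value of the second ratio went from -1.03 to -0.41, no longer 2-fold. That thinned value rests on a small part of these UMIs and has no interval, so it cannot show whether depth plays a part. The nephron lineage held 74 of the 77 Enl-T1 UMIs (96.1%, 89 to 99.2) and 35 of the 37 treated UMIs. Its level there was 0 CPM in the Enl-WT library, 5.17 CPM (4.06 to 6.49) in Enl-T1 and 1.84 CPM in treated Enl-T1. With Enl-WT set at a floor of 3 counts, it was at least 23.8-fold higher in Enl-T1 than in the Enl-WT library. The treated level was 0.356 times (0.231 to 0.54) that of Enl-T1. The stroma held 1, 3 and 2 Hoxa13 UMIs. No Hoxa13 UMI was counted in the ureter classes, the ureteric epithelium or the endothelium of any library.

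Along the nephron, Hoxa13 ran opposite to Hoxd12. In Enl-T1 it was at 2.98 CPM in NP1-like cells and at 11.5 CPM (6.95 to 18.0) in the pooled podocyte-like, proximal tubule-like and distal tubule or loop of Henle-like cells, so the NP1-like level of Hoxa13 was 0.258 times (0.132 to 0.508) that of the differentiated cells. The same ratio was 0.172 (0.0642 to 0.42) in treated Enl-T1. Distal tubule or loop of Henle-like cells held 0, 12 and 6 Hoxa13 UMIs, or 0, 13.4 and 2.8 CPM, at least 11.4-fold higher in Enl-T1 than in the Enl-WT library. The highest Hoxa13 level was in an unnamed nephron cluster led by S100g, Tmem52b and Gata3, which also carried collecting duct markers, at 29.3 CPM (15.2 to 51.2) from 12 UMIs in 38 Enl-T1 cells, against 0 in 182 Enl-WT cells and 1.75 CPM in 61 treated cells. Proximal tubule-like cells held 0, 4 and 11 Hoxa13 UMIs, and the 11 treated UMIs lay in 4 cells. Treated over Enl-T1, the Hoxa13 ratio was 0.284 in NP1-like cells, 0.427 in the pooled differentiated cells and 0.0597 in the S100g cluster. In the proximal tubule-like part of that pool the treated level was the higher one, at 13.4 CPM from the 11 UMIs.

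**Figure D4:**
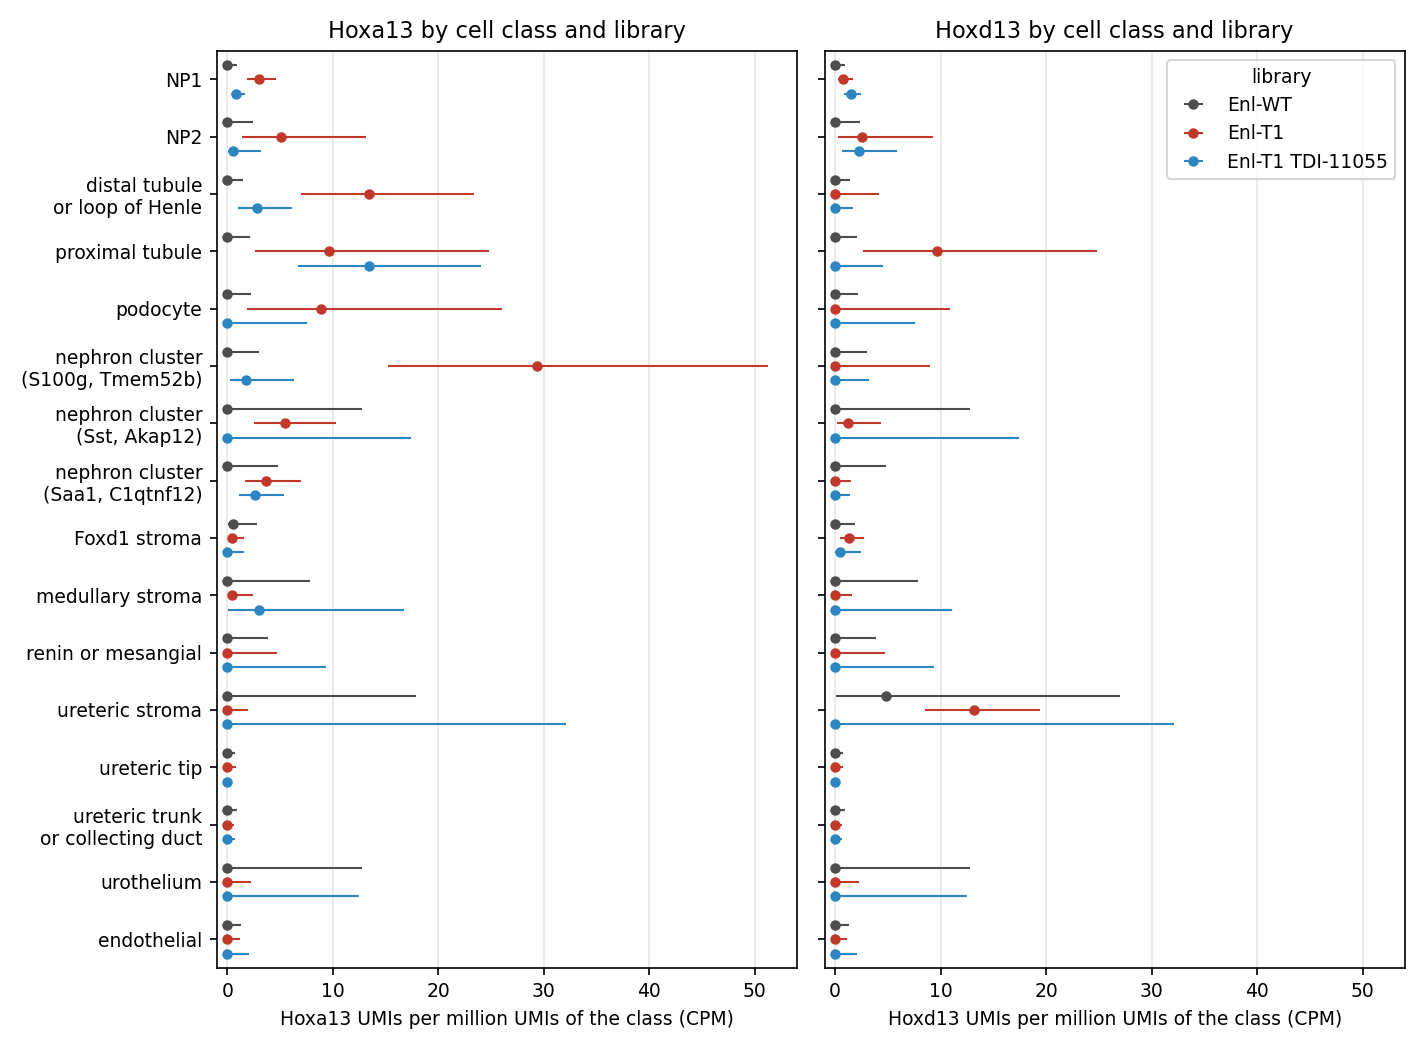
Levels of Hoxa13 (left) and Hoxd13 (right) in CPM (horizontal axes) by cell class or unnamed nephron cluster (rows) and library (colours), with exact 95% counting intervals. Hoxa13 in Enl-T1 is at 13.4 CPM in distal tubule or loop of Henle-like cells, 29.3 CPM in the S100g cluster and 0 in ureteric stroma-like cells, whereas Hoxd13 is at 13.2 CPM in ureteric stroma-like cells.

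Hoxd13 had a different pattern from Hoxa13 and was mostly a stromal RNA in Enl-T1. It had 3, 44 and 20 UMIs in 3, 26 and 11 cells, or 0.0937, 0.995 and 0.462 CPM. The ratio was 10.6 (3.41 to 53.5) for Enl-T1 against Enl-WT and 0.464 (0.259 to 0.804) for treated Enl-T1 over Enl-T1. The stroma gave 70.5% (54.8 to 83.2) of the Enl-T1 UMIs, and its level of Hoxd13 was 0.736 CPM in the Enl-WT library, 2.79 CPM (1.9 to 3.96) in Enl-T1 and 0.575 CPM in treated Enl-T1. Ureteric stroma-like cells alone held 25 of the 44 Enl-T1 UMIs (56.8%, 41 to 71.7), in 12 cells, at 13.2 CPM (8.53 to 19.4), which was 20.2 times (8.1 to 60.3) the level in the other stroma. Their share was 36.4% when the clustering was repeated with another random seed. Single cells weighed heavily: 9 of the 16 Enl-T1 stroma cells with Hoxd13 held more than 1 UMI, with up to 5. The intervals of Hoxd13 levels, ratios and UMI shares are therefore too narrow.

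Without the ureter classes, Hoxd13 was at 0.0634, 0.467 and 0.466 CPM. The ratio was then 7.36 (1.78 to 65.2) for Enl-T1 against Enl-WT, from 19 against 2 UMIs, and 0.999 (0.506 to 1.98) for treated Enl-T1 over Enl-T1. In this clustering, the lower Hoxd13 level of the treated library was seen with the ureter classes and not without them. The ureter classes held a smaller share of the Enl-T1 Hoxd13 UMIs with another random seed, so this result depends on the clustering. Cells without any of the 21 ureter markers, which were 16.2% and 29% of kept cells, held 0 of the 44 Enl-T1 and 0 of the 20 treated Hoxd13 UMIs. Cells with at least 3 markers held 81.8% and 55% of them, and 30.3% and 19.5% of all UMIs. In treated Enl-T1 the ureter classes held 0 of the 20 and NP1-like cells 14. The marker list includes Des, a leading gene of an NP1 cluster, so these markers do not single out ureter cells. The nephron lineage held 0, 13 and 18 Hoxd13 UMIs, or 0, 0.908 and 0.947 CPM, at least 4.19-fold higher in Enl-T1 than in the Enl-WT library and with a ratio of 1.04 (0.483 to 2.32) for treated Enl-T1 over Enl-T1. In NP1-like cells the UMIs were 0, 5 and 14, the last in 5 cells, and the treated ratio was 2.09 (0.71 to 7.4).

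Hoxc12, Hoxb13 and Hoxc13 were counted at 1 or 2 UMIs in all. Hoxb13 had 1 UMI in Enl-WT and none elsewhere, Hoxc13 had 2 in Enl-T1 and none elsewhere, and Hoxc12 had 2 in 1 cell of treated Enl-T1 and none elsewhere. At these counts no difference between libraries was detectable. Hoxc12 and Hoxc13 lie at the end of the Hoxc cluster on chromosome 15 (102936757 to 102938609 and 102921103 to 102928814, both on the plus strand) and Hoxb13 lies on chromosome 11 (96194316 to 96197447, plus strand). The terminal genes with more UMIs were all in the Hoxa and Hoxd clusters.

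The RNAs of Hoxa13 and Hoxd13 were not found together. Of the 63 Enl-T1 cells and 27 treated cells with Hoxa13, 0 held Hoxd13, and in the nephron lineage of Enl-T1 0.807% of the cells without Hoxa13 held Hoxd13, so a joint detection was hardly to be seen at these counts. Hoxd12 accompanied Hoxd13 in the Enl-T1 stroma: 11 of the 16 cells with Hoxd13 (68.8%, 41.3 to 89) also held Hoxd12, against 14% (12.2 to 15.9) of those without, at median depths of 8731.5 and 6909.5 UMIs. Of these 16 cells, 12 were ureteric stroma-like, a class with more Hoxd12 than the other stroma. The part of the class in this difference was not tested. In the Enl-T1 nephron lineage, 62.3% (49 to 74.4) of cells with Hoxa13 and 52.6% (49.8 to 55.4) of those without held Hoxd12. In the treated nephron lineage the order was the other way, with 12% (2.55 to 31.2) of 25 cells with Hoxa13 against 22.3% (20.1 to 24.7) of those without, at median depths of 20779 and 12914 UMIs. The intervals overlapped in both libraries.

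The Hox genes just before the terminal ones, of paralog groups 9 to 11, were read as a list of 10 genes that the kidney normally uses. In the nephron lineage 9 of the 10 were at least 2-fold higher in Enl-T1 than in the Enl-WT library (6.01% of all genes were). None was at least 2-fold lower (21.8% of all genes were), and the median log2 ratio was 1.48 against -0.41 over all genes. In the stroma 7 of 10 were higher (5.83% of all genes were), with a median of 1.23 against -0.28. In the ureteric epithelium, where 4.73% of all genes were at least 2-fold higher, it was 0 of 10, with a median of 0.10 against -0.30. For treated Enl-T1 over Enl-T1 in the nephron lineage, 3 of 10 were at least 2-fold lower (6.11% of all genes were) and 0 higher, with a median log2 ratio of -0.83 against -0.03 over all genes. The stroma had 0 of 10 lower (9.95% of all genes were), with a median of -0.20 against -0.03. The ureteric epithelium, which is outside the lineages of the Cre, had 5 of 10 lower (8.97% of all genes were), with a median of -1.02 against -0.01, and the endothelium 6 of the 9 with enough UMIs (10.1% of all genes were), with a median of -2.38 against -0.09. In the endothelium 2 of 10 were higher for Enl-T1 against Enl-WT (4.06% of all genes were), with a median of 0.58 against -0.31.

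The ratios of the terminal genes stood beside those of their neighbours in the same cluster as follows. In the Hoxd cluster, where 1851 bases separate Hoxd12 from Hoxd11 and 3413 bases separate it from Hoxd13, the nephron ratio of Enl-T1 over Enl-WT was 1.35 for Hoxd9, 2.58 for Hoxd10, 2.65 for Hoxd11 and 17.3 for Hoxd12. In the Hoxa cluster it was 2.54 for Hoxa9, 2.12 for Hoxa10 and 2.96 for Hoxa11, and at least 23.8 for Hoxa13, which lies 11883 bases from Hoxa11. In the Hoxc cluster it was 3.23 for Hoxc9, 4.24 for Hoxc10 and 11.6 (9.15 to 14.9) for Hoxc11, the last gene of that cluster with a measurable level. Hoxa13 and Hoxc11, the last measurable genes of their clusters, thus had the largest ratios there, that of Hoxa13 being a lower bound against 0 Enl-WT UMIs. In Hoxd the order of Hoxd12 and Hoxd13 is not known, since Hoxd13 has only a lower bound of 4.19.

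Treatment went with a different order among the clusters. For treated Enl-T1 over Enl-T1 in the nephron lineage, Hoxa9, Hoxa10 and Hoxa11 had ratios of 0.947, 1.03 and 1.09, while Hoxa13, in the same cluster, was at 0.356. Hoxc9, Hoxc10 and Hoxc11 were at 0.403, 0.401 and 0.425. Hoxd9, Hoxd10 and Hoxd11 were at 0.603, 0.521 and 0.518, and Hoxd12 at 0.294. The Enl-T1 library is shared with the first comparison, so a high count there raises one ratio and lowers the other.

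**Figure D5:**
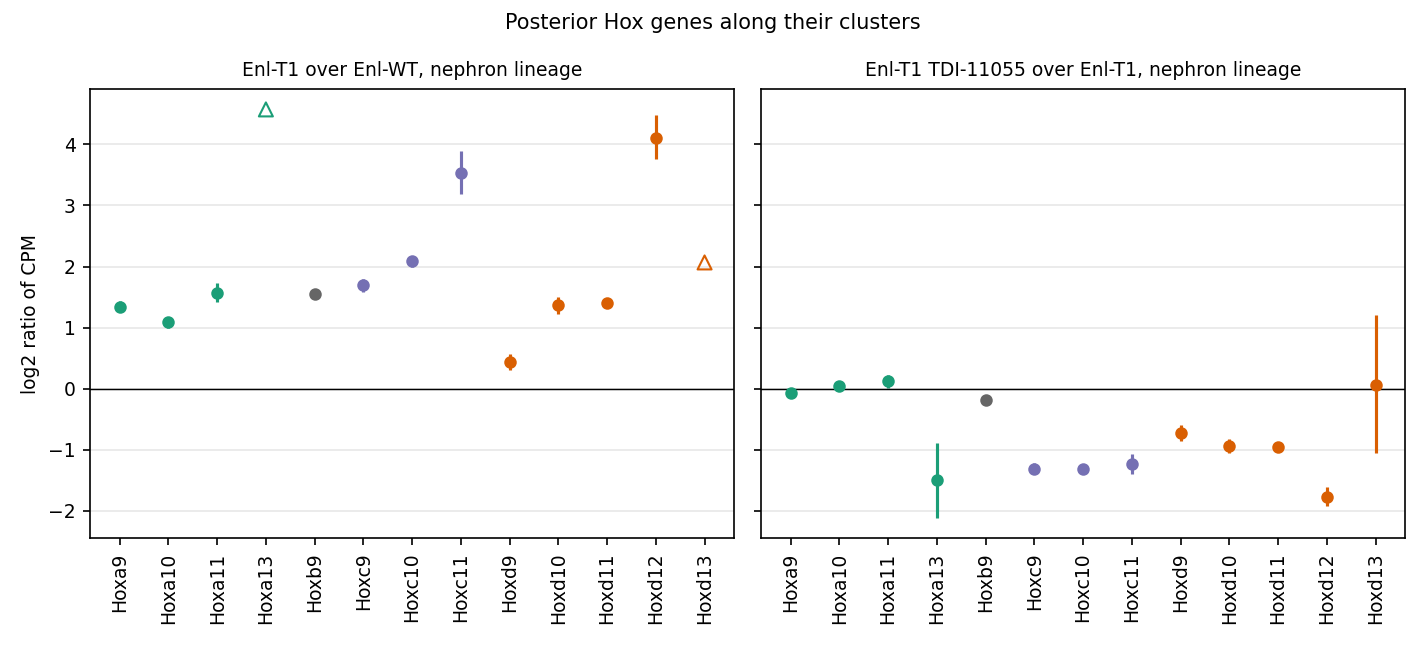
Log2 ratio of CPM in the nephron lineage (vertical axis) for Hox genes in their order along each cluster (horizontal axis, colour by cluster), for Enl-T1 against Enl-WT (left) and treated Enl-T1 over Enl-T1 (right). Lines are 95% counting intervals, and open triangles are lower bounds for Hoxa13 and Hoxd13, which had 0 UMIs in Enl-WT. Hoxd12 is at 4.11 on the left and -1.77 on the right.

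Genes that lie beside or among the terminal genes were read as a list of 5, of which 3 had enough UMIs in the nephron lineage. Hottip, a non-coding RNA from beside Hoxa13, had 1 UMI in Enl-WT and 28 in Enl-T1, a ratio of 27.0 (4.47 to 1105.9). Hotair, a non-coding RNA in the Hoxc cluster between Hoxc11 and Hoxc12, had 3 and 43 UMIs, a ratio of 13.8 (4.43 to 69.8). Lnpk, a protein-coding gene beyond the Hoxd cluster, had a ratio of 1.02 (0.873 to 1.19). For treated Enl-T1 over Enl-T1, Hottip was at 0.35 and Hotair at 0.351.

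Of 7 Hox cofactors, proteins that bind DNA together with Hox proteins, 0 were past 2-fold in the nephron lineage for Enl-T1 against Enl-WT. Of all genes, 6.01% were higher and 21.8% lower there, so a count of 0 among 7 genes says little. The median log2 ratio of the cofactors was -0.03, against -0.41 over all genes. Of 6 targets of HOXA13 and HOXD13 known from limb and genital tubercle, 0 were at least 2-fold higher and 3 lower in the Enl-T1 nephron lineage (21.8% of all genes were lower), with a median log2 ratio of -0.98. The 3 were Bmp7 with a ratio of 0.369, Sostdc1 with 0.0843 and Enpp2 with 0.343. Bmp7 is a survival signal of nephron progenitors and Sostdc1 an antagonist of BMP and WNT signalling in the distal tubule, so both are also kidney genes in their own right. Distal tubule or loop of Henle-like cells went from 415 in Enl-WT to 70 in Enl-T1, and their part in these nephron ratios was not tested. In NP1-like cells 2 of the 6 targets were at least 2-fold higher (5.97% of all genes were), Bmp2 with a ratio of 2.05 and Epha7 with 2.21, and 1 was lower (12.9% of all genes were), with a median log2 ratio of 0.04 against -0.30 over all genes. In the stroma the ratio was 4.43 for Sostdc1, 2.07 for Enpp2 and 0.372 for Aldh1a2, and between these 2-fold marks for the other 3 targets. None of the 3 Cdx genes, activators of posterior Hox genes in the early embryo, reached 10 UMIs.

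The genes most like Hoxd12 and Hoxa13 were sought among 14310 genes by Pearson correlation of log2(CPM + 1) over 31 points, each a named class in 1 library with at least 50 cells. Hoxd12 was most like Hoxa11os (r = 0.838), an RNA antisense to Hoxa11 whose reads can be told from Hoxa11 only by strand, then Gm14396 (0.833), Gm5914 (0.832), Hoxc11 (0.819) and Hoxa6 (0.807). Hoxa13 was most like Adgra1 (0.821), Gm45671 (0.789), Mt3 (0.738), Thsd7b (0.725) and C330021F23Rik (0.717). The points share 3 libraries and their depths, and Hoxa13 rests on few UMIs, so these are descriptions of the libraries.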

How the data were processed

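Per the labels and the paper's methods, whole E15.5 kidneys were dissociated and sequenced with a droplet 3′ kit, and the authors aligned the reads to mm10 with Cell Ranger 6.1.2. The deposited values are counts of UMIs per gene and barcode, with no normalization. Barcodes with 1000 to 6000 genes and at most 10% mitochondrial UMIs were kept. Cells were clustered with Seurat 5.3.0 in R 4.3.3 on 2000 variable genes with 49 Hox genes and 128 technical genes left out, first with 30 principal components at a resolution of 0.5, then within each lineage with 20 at 0.8. A cluster took a name when at least 3 markers were detected and its leading genes did not contradict it. UMIs were summed per class and library (Python 3.11.15, numpy 2.4.6, scipy 1.17.1), and CPM, ratios and shares were given exact 95% intervals (Poisson, binomial split, Clopper-Pearson). Genes with at least 10 UMIs over both libraries were compared, and a 2-fold ratio was called. A fold against 0 UMIs used a floor of 3 counts over the class. Such a fold is given as at least or as a lower bound, and it is not the lower end of an exact interval. Doublets were marked with Scrublet in scanpy 1.11.5 and kept in the main values. Each group had 1 library, so no test was run. The genes and lists were chosen with earlier results of these data known. Named genes were the 6 terminal genes, the list genes, the markers and leading genes of clusters, and the 5 genes most like each terminal gene with at least 100 UMIs. Sequences and starts came from RefSeq tables (GRCm38.p6). Totals of all barcodes were 37221435, 63336586 and 76619303 UMIs for Enl-WT, for Enl-T1 and for the treated Enl-T1 library.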

Additional observations from a re-analysis of the deposited data

Results flagged for a closer look

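Barcodes with more than 6000 genes, which the comparisons left out, also held terminal Hox RNA. They numbered 55 in the Enl-WT library, 309 in Enl-T1 and 577 in treated Enl-T1. Hoxd12 had 0 UMIs in those of the Enl-WT library, 128 in those of Enl-T1 and 190 in those of treated Enl-T1. Hoxa13 had 0, 10 and 19.

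Hoxd13 moved in opposite directions in 2 classes when treated Enl-T1 was set against Enl-T1. Its ratio was 2.09 (0.71 to 7.4) in NP1-like cells, from 14 against 5 UMIs, and 0.206 (0.0239 to 0.809) in the stroma, from 2 against 31. Of the 31 UMIs, 25 lay in ureteric stroma-like cells, which numbered 248 in Enl-T1 and 11 in treated Enl-T1, and in the other stroma the ratio was 0.912 (0.0901 to 5.1). The difference between the classes was not tested, since each group had 1 library, and the interval in NP1-like cells includes 1.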

How the results depend on the processing

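The main limit is 1 library per group. No paired analysis was possible because each group had a single library without replicate numbers, and no replicate could be left out. Of the 647 values recomputed under alternatives, 2 turned direction, and the causes of the shifts were not tested. For the leading results 35 values moved and 110 stayed, and for the others 65 moved and 435 stayed. A moved value lay outside the interval of the main value or, for a count of genes, differed from it past a set fold. In log2, and in the order Enl-T1 over Enl-WT then treated Enl-T1 over Enl-T1, thinning to 2000 UMIs moved Hoxd12 over all cells from 3.80 and -1.59 to 3.30 and -1.88, and in the nephron lineage from 4.11 and -1.77 to 3.49 and -2.23. Thinning also moved the second ratio of Hoxa13 from -1.03 to -0.41 and that of Hoxd13 from -1.11 to -0.21, with few UMIs of either gene left. In cells with a Y-linked UMI and no Xist, the first ratio was 4.27 for Hoxd12 over all cells, 4.81 in the nephron lineage, and for Hoxa13, with 0 UMIs in those Enl-WT cells, only a lower bound of 2.32 (5.80 over all cells), while the second ratio of Hoxd13 turned to 0.10. Without the ureter classes that ratio was 0.00. With lineages set by the highest marker sum, the first ratio of Hoxd12 in the nephron lineage was 4.63 and the second in the stroma -1.22, against -2.24. With the endothelial level subtracted, the second ratio of Hoxd12 in the ureteric epithelium turned from -1.25 to 0.57.

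The next 3 alternatives were chosen after seeing the data. Counting each cell with a UMI once gave 3.08 for the first ratio of Hoxd12. In cells without a ureter marker the second ratio of Hoxd12 was -2.17 over all cells and -2.01 in the nephron lineage, and the first of Hoxa13, with 0 UMIs in Enl-WT, had a lower bound of 2.44. A second clustering seed moved the ureter share of Hoxd13 in Enl-T1 from 56.8% to 36.4%.

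With ureter cells set by 3 markers instead of by class, the ureter shares in Enl-T1 and treated Enl-T1 were 30.8% and 38.5% for Hoxd12, 11.7% and 24.3% for Hoxa13, and 81.8% and 55% for Hoxd13. The share of nephron cells with Hoxd12 depends on depth: in Enl-WT, Enl-T1 and treated Enl-T1 it was 2.93%, 53.1% and 22.1% without thinning and 2.19%, 27.7% and 9.03% at 4000 UMIs. The median log2 ratio of Hox 9 to 11 genes in Enl-T1 over Enl-WT was 1.81 (nephron) and 1.56 (stroma) with median-of-ratios scaling, and 1.76 and 1.42 when mitochondrial, haemoglobin and ribosomal protein genes were taken out of the total, where the genes at least 2-fold lower after treatment numbered 5 and 2 in place of 3 and 0.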

Other observations

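Scrublet marked 219, 137 and 61 kept cells of Enl-WT, Enl-T1 and treated Enl-T1 as doublets. They held 5, 63 and 13 of the Hoxd12 UMIs. In cells with a Y-linked UMI and no Xist, Hoxd12 was at 2.04, 39.3 and 12.4 CPM in the 3 libraries, and in the other cells at 3.22, 36.0 and 11.9 CPM.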
